A study of Mus musculus with 6 samples.

Results

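The leukocyte lineage miRNAs are 7 mature miRNAs from the miR-142, miR-223, miR-150 and miR-342 hairpins, which blood-derived immune cells make in large amounts. They were taken by name (mmu-miR-142a-3p, mmu-miR-142a-5p, mmu-miR-142b, mmu-miR-223-3p, mmu-miR-150-5p, mmu-miR-342-3p and mmu-miR-342-5p) from the 1039 mature miRNAs of the table. All 7 were among the 548 miRNAs tested, that is, with a mean above 1 RPM in at least one group. RPM is the number of reads of a miRNA per 1000000 miRNA reads of its library. The libraries were made from the liver of wild type ICR mice aged 30 weeks, an outbred stock. All mice of both groups received HFD (high-fat diet) throughout, for 12 weeks before and during 8 weeks of gavage. The J group (3 mice) received JTXK granule, a Chinese herbal formula, and the M group (3 mice) received sterile water. A mouse gave 1 library, and how the sequenced mice were picked is not given in the sources used here. Where 3 values are given for a group, they are those of its replicates 1, 2 and 3 in that order.

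A miRNA is cut from a hairpin RNA, and either arm of the hairpin (5p or 3p) can be loaded into a silencing complex, where bases 2 to 8, the seed, choose the target mRNAs. miR-142 is made in all blood lineages and is used as a pan-leukocyte marker. miR-223 belongs to the myeloid lineage, with neutrophils, monocytes and platelets as its main sources, and miR-150 to mature lymphocytes. miR-342 lies in an intron of Evl, a gene for an actin regulator, and is abundant in lymphocytes though not restricted to them. In the liver, Kupffer cells, infiltrating leukocytes and blood left in the vessels can all carry these miRNAs. In whole tissue, fewer cells of a type and less RNA per cell cannot be told apart.

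The mature sequences of 6 of the 7 miRNAs were matched by name in RefSeq (GRCm38.p6) and are shown with the seed in capitals, because the seed tells whether members could share targets.
mmu-miR-142a-3p: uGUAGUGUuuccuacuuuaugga
mmu-miR-142a-5p: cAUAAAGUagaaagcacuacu
mmu-miR-142b: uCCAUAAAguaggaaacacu
mmu-miR-223-3p: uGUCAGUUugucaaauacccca
mmu-miR-342-3p: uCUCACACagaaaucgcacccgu
mmu-miR-342-5p: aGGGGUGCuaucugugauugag
The 6 seeds are all different. Of the other mouse miRNAs of the table with a RefSeq sequence, 0 had the seed of any of the 6.

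The hairpins of both loci with 2 arms among the members are shown with the mature arms in capitals, since the arms of a hairpin are compared further on.
Mir142: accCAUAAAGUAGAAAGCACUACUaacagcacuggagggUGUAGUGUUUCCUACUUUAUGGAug
Mir342: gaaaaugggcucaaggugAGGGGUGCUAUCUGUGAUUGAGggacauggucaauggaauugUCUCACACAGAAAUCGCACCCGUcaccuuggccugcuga
In GRCm38, Mir142 lies at chr11:87756864-87756927 on the plus strand, in an intron of the noncoding RNA Mir142hg. Mir142b lies over it on the minus strand (chr11:87756841-87756955). All 20 bases of mmu-miR-142b are the reverse complement of bases 4 to 23 of mmu-miR-142a-3p, counted from its 5′ end. Mir342 lies in an intron of Evl (chr12:108658620-108658718, plus strand). Mir223 lies over an exon of the noncoding transcript F630028O10Rik (chrX:96242817-96242926, plus strand). Mir150 (chr7:45121757-45121821, plus strand) overlaps no other annotated gene.

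The libraries held 2626353 to 4314134 miRNA reads. The hepatocyte miRNAs, led by mmu-miR-122-5p, summed to 329007 to 378100 RPM per J library and 333259 to 379781 RPM per M library, so the label of liver was met. M group replicate 1 stood apart from the rest: of the 548 miRNAs, 30 exceeded all other libraries by 4-fold or more in it (1 RPM added), whereas J group replicate 3 had 1 such miRNA and the rest had 0. It is also the only library whose label begins with MX1, where the other M libraries have MX2 and the J libraries GJ2, and what these labels stand for is not given. The differences between the groups for the 7 miRNAs and their ratios are therefore given with and without it.

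**Figure D1:**
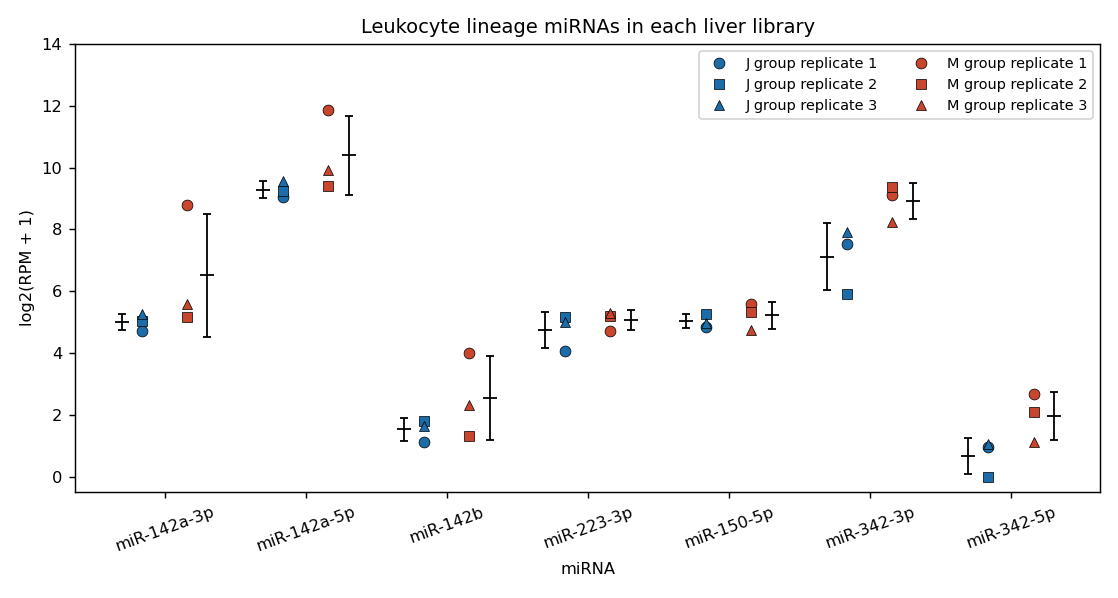
Levels of the 7 miRNAs in each library, as log2(RPM + 1) on the vertical axis, with blue points for the J group, red points for the M group and black bars for the group mean and SD (n = 3). M group replicate 1 (red circle) was far above the other 5 libraries for the 3 miRNAs of the miR-142 locus, and for both arms of miR-342 every blue point was below every red one.

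Together the 7 miRNAs made up a small part of the liver's miRNA reads. Their sum was 781, 763 and 1105 RPM for the J mice, against 4798, 1461 and 1381 RPM for the M mice. Every J library was below every M library in this sum, and M group replicate 1 was far above the rest. Of all 548 single miRNAs, 9.31% separated in this direction. mmu-miR-142a-5p alone gave 46.7% to 78.3% of the sum in a library. By itself it overlapped between the groups, with 683 RPM in M group replicate 2 and 761 RPM in J group replicate 3.

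In the J group the order of levels began with mmu-miR-142a-5p at 628 ± 121 RPM (SD, n = 3) and mmu-miR-342-3p at 162 ± 93.9 RPM. mmu-miR-150-5p (32.1 ± 5.08 RPM), mmu-miR-142a-3p (31.4 ± 5.92 RPM) and mmu-miR-223-3p (27.1 RPM, SD 10.01) followed and differed from each other by less than their spread. mmu-miR-142b (1.94 ± 0.699 RPM) and mmu-miR-342-5p (0.666 ± 0.581 RPM) were lowest, with 5 to 39 and 0 to 14 reads per library over both groups. Mature miRNAs are nearly equal in length, so RPM can be set side by side, but library kits ligate some miRNAs better than others and this was not corrected. In the M group mmu-miR-142a-5p (1784 ± 1672 RPM) and mmu-miR-342-3p (507 ± 185 RPM) again came first, but with M group replicate 1 the spread of mmu-miR-142a-5p was nearly as large as its mean. Without that library the M means were 822 RPM for mmu-miR-142a-5p and 484 RPM for mmu-miR-342-3p, and mmu-miR-142a-3p (40.8 RPM), mmu-miR-223-3p (36.8 RPM) and mmu-miR-150-5p (32.3 RPM) were again close together.

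Of the 7 miRNAs, 2 passed the thresholds of the study between the groups, and both were lower in the J group. To pass, a miRNA needed a log2 fold change beyond 0.3 in either direction and p under 0.05 before adjustment, here by limma (a linear model that moderates variances across miRNAs) on log2(RPM + 1). Log2 fold changes are J group minus M group, given ± their standard error (SE). Of all 548 miRNAs, 5.29% passed these thresholds and 3.83% passed them as lower in the J group. The 2 that passed, mmu-miR-342-3p and mmu-miR-342-5p, come from a single hairpin. Only mmu-miR-342-3p is in the study's own list of miRNAs that differ. mmu-miR-342-5p was tested only through the M group, where it is high, with a mean of 3.24 RPM against 0.666 RPM in the J group. All 7 log2 fold changes were below 0, as were 58.9% of those of all miRNAs, and their median was -1.12, beside -0.13 over all 548. Without M group replicate 1 the median was -0.38 (-0.08 over all miRNAs), 6 of 7 were below 0, and 0 of 7 passed by limma, with 0 at an unadjusted p under 0.05, while 4.01% of all miRNAs passed as lower. Without M group replicate 2, 4 of 7 passed as lower (all 3 from the miR-142 locus, and mmu-miR-342-3p), against 6.93% of all miRNAs. No miRNA of the 548 had an adjusted p under 0.05 by limma (Benjamini-Hochberg), whereas 29 had an unadjusted p under 0.05, edgeR gave 0 and DESeq2 gave 2 with an adjusted p under 0.05, neither of them a member. Among all the calls 72.4% were lower in the J group, a share that became 43.3% with median-of-ratios scaling and 35.5% with quantile normalization.

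**Figure D2:**
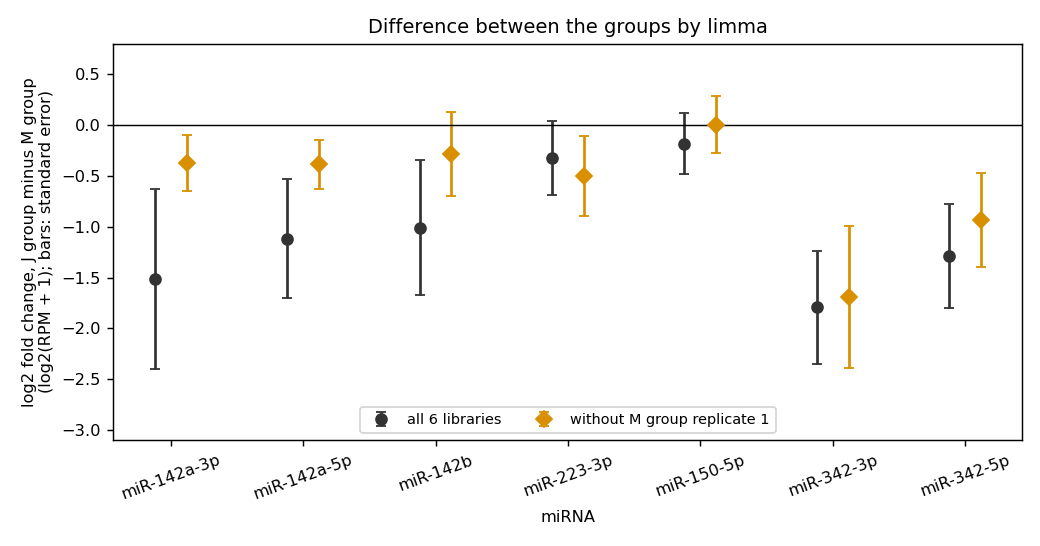
Log2 fold change of each miRNA, J group minus M group, from limma on log2(RPM + 1), with bars for the standard error; black circles use all 6 libraries and orange diamonds leave out M group replicate 1. Without that library the values of the miR-142 locus lay between -0.38 and -0.28, while mmu-miR-342-3p stayed at -1.69.

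mmu-miR-342-3p, the abundant arm of the hairpin in Evl, had 185, 58.6 and 242 RPM in the J mice against 554, 665 and 304 RPM in the M mice. Every J library was below every M library, and J group replicate 2 was the lowest of all. Non-overlap with the J group lower was seen for 9.31% of all miRNAs, and for 2 of the 7 members. The group means were 162 ± 93.9 and 507 ± 185 RPM for J and M (SD, n = 3). The log2 fold change was -1.79 ± 0.56 (SE; limma p = 0.0138 and adjusted p = 0.64), while permuting the libraries exactly gave p = 0.1 on log2(RPM + 1), two-sided, the lowest value that 3 against 3 allow. It passed under 16 of 17 alternatives of the analysis, the exception being the fit without M group replicate 1, where the log2 fold change was -1.69 ± 0.70 and the unadjusted limma p was above 0.05 (adjusted p = 0.82, limma). Over the alternatives the adjusted p ranged from 0.37 to 0.83. Without J group replicate 2 it was -1.18, and the miRNA still passed. This miRNA is in the study's own list of miRNAs that differ, so its direction is not independent evidence. Relative to the median of all 548 miRNAs, its log2 fold change was -1.66 in RPM, -1.65 when scaled by the median of ratios and -1.49 when quantile normalized.

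mmu-miR-342-5p, the rare arm of the same hairpin, had 4, 0 and 3 reads in the J mice against 14, 11 and 5 reads in the M mice. That is 0.927, 0 and 1.07 RPM against 5.33, 3.22 and 1.16 RPM. The groups did not overlap, but the lowest M library and the highest J library were within counting error of each other. Their 95% Wilson intervals ran from 0.497 to 2.73 RPM in M group replicate 3 and from 0.364 to 3.14 RPM in J group replicate 3, so that gap was not detectable at this depth. In J group replicate 2 the count of 0 reads allows up to 0.837 RPM by the limit of 3 reads and up to 1.07 RPM by the Wilson interval. Its log2 fold change was -1.29 ± 0.51 (SE; limma adjusted p = 0.71; exact permutation p = 0.1, two-sided), a value that the added 1 RPM brings closer to 0 for so rare a miRNA. It passed under 7 of 16 alternatives and not without M group replicate 1, where it was -0.93 ± 0.46 (adjusted p = 0.82, limma). Over the alternatives its adjusted p ranged from 0.50 to 0.83. These bounds cover counting error alone, because PCR copies of a molecule cannot be recognised.

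The arms of miR-342 followed each other from library to library. Over the 6 libraries Pearson's r between them was 0.93 on log2(RPM + 1), and 0.99 over the 5 libraries without M group replicate 1, points that share their library and its depth. The 3p arm had 104 to 261 reads for each read of the 5p arm in the 5 libraries where the 5p arm was seen. With 0.5 read added, the log2 ratio of the 3p to the 5p arm was 7.93 ± 0.685 for J and 7.39 ± 0.654 for M (SD, n = 3). The difference of 0.54 was within that spread (exact two-sided permutation test, p = 0.6), and it was 0.17 without M group replicate 1 and 0.15 without J group replicate 2. Its sign depended on the reads added, with 1.35 for 0.1 read and -0.71 for 5 reads.

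mmu-miR-142a-5p, the abundant arm of the pan-leukocyte hairpin, had 525, 598 and 761 RPM in the J mice against 3709, 683 and 961 RPM in the M mice. M group replicate 1 was 3.86-fold above the next library, and M group replicate 2 lay inside the range of the J group. The log2 fold change was -1.12 ± 0.59 (SE; limma adjusted p = 0.71; exact permutation p = 0.2, two-sided) and did not pass the thresholds. Without M group replicate 1 it was -0.38 ± 0.24 (adjusted p = 0.87, limma), and without M group replicate 2 it was -1.60 and passed.

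mmu-miR-142a-3p, the other arm, had 25.3, 31.8 and 37.1 RPM in the J mice against 444, 34.6 and 47.0 RPM in the M mice. Here M group replicate 1 was 9.43-fold above the next library, one of the 30 miRNAs at least 4-fold above all others in that library. The log2 fold change was -1.51 ± 0.89 (SE; limma adjusted p = 0.71; exact permutation p = 0.2, two-sided), and -0.37 ± 0.27 without M group replicate 1. It passed under edgeR (-2.33) and without M group replicate 2 (-2.19). DESeq2 gave it no p, as that tool does where a single library's count is extreme.

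The arms of miR-142a kept a steady ratio in 5 of the 6 libraries and departed from it in the remaining one. The J mice had 20.8, 18.8 and 20.5 reads of the 5p arm for each read of the 3p arm. M group replicates 2 and 3 had 19.7 and 20.5, but M group replicate 1 had 8.36. Both arms were thus at their highest in that library, the 3p arm by the larger factor. Between the groups the log2 ratio of the 3p to the 5p arm differed by -0.41 (-4.32 ± 0.0787 for J and -3.90 ± 0.728 for M, SD, n = 3; exact two-sided permutation test, p = 0.5). Without M group replicate 1 that difference was 0.0076.

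mmu-miR-142b, assigned to the strand opposite miR-142a, had 5, 9 and 6 reads in the J mice against 39, 5 and 17 reads in the M mice. It was highest in the library where miR-142a was highest, and it amounted to 3.35% to 8.42% of the reads of mmu-miR-142a-3p in every library. The log2 fold change was -1.01 ± 0.66 (SE; limma adjusted p = 0.71), and -0.28 ± 0.41 without M group replicate 1. Its entry in the table carries a position range written from the higher to the lower number, as do 79 of all 1039 entries. The sources used here do not say whether reads were counted by strand. Without that, reads of mmu-miR-142b and mmu-miR-142a-3p cannot be told apart, and its values may not be those of a separate miRNA.

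mmu-miR-223-3p, the myeloid member, had 15.8, 34.6 and 31.0 RPM in the J mice against 25.1, 35.5 and 38.2 RPM in the M mice. The groups overlapped, J group replicate 1 was the lowest library and M group replicate 1 the next lowest. The log2 fold change of -0.32 ± 0.36 (SE; limma adjusted p = 0.79) was smaller than its SE. It was -0.50 ± 0.39 without M group replicate 1 and 0.015 without J group replicate 1. Its other arm, mmu-miR-223-5p, had 3 to 11 reads per library and a log2 fold change of -0.52 ± 0.38 (SE; limma adjusted p = 0.71), or -0.27 ± 0.29 without M group replicate 1, which held the most reads. The level of the 3p arm in M group replicate 1 lay between those of the J libraries, unlike miR-142a in the same library.

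mmu-miR-150-5p, the mature lymphocyte member, had 27.8, 37.7 and 30.7 RPM in the J mice against 47.2, 38.7 and 25.8 RPM in the M mice. M group replicate 1 had the highest value and M group replicate 3 the lowest, so the J libraries lay within the range of the M libraries. The log2 fold change was -0.18 ± 0.30 (SE; limma adjusted p = 0.85). Its sign was not settled, with 0.0070 without M group replicate 1 and 0.049 after quantile normalization. The other arm, mmu-miR-150-3p, had 1 to 2 reads in 5 libraries and 8 reads in M group replicate 1.

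**Figure D3:**
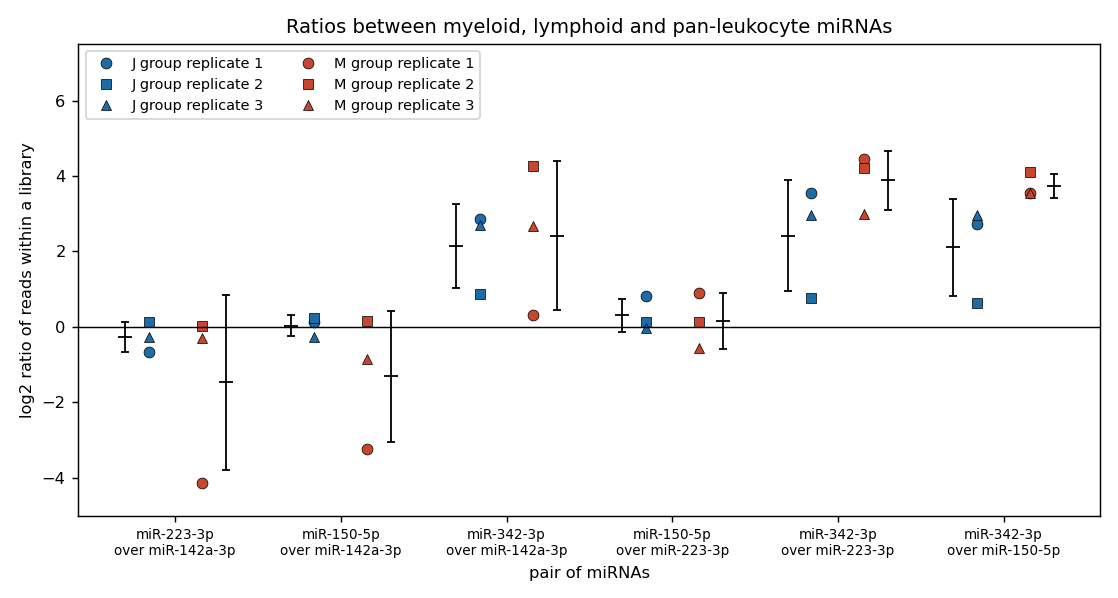
Log2 ratio of reads between pairs of miRNAs within each library (0.5 read added), with blue points for the J group, red points for the M group and black bars for the mean and SD (n = 3). The ratio of mmu-miR-342-3p to mmu-miR-150-5p was below 3 in all J libraries and above 3.5 in all M libraries, and both ratios of mmu-miR-223-3p and mmu-miR-150-5p to mmu-miR-142a-3p were far below 0 in M group replicate 1 alone.

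The lineages were compared by ratios within a library, which do not depend on how a library is scaled. Between the members abundant in lymphocytes, there were 6.66, 1.56 and 7.89 reads of mmu-miR-342-3p for each read of mmu-miR-150-5p in the J mice against 11.7, 17.2 and 11.8 in the M mice. All J libraries were below all M libraries. The log2 ratio was 2.11 ± 1.29 for J and 3.73 ± 0.317 for M (SD, n = 3), a difference of -1.62. Permuting the libraries exactly gave p = 0.1 (two-sided), which no result of 3 against 3 can better, and 0.6 after Benjamini-Hochberg adjustment over the 6 ratios. It was -1.71 without M group replicate 1 and -0.88 without J group replicate 2. Pearson's r between mmu-miR-342-3p and mmu-miR-150-5p on log2(RPM + 1) was 0.25 over the 6 libraries, and -0.08 without M group replicate 1.

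Against the myeloid member, the log2 ratio of mmu-miR-342-3p to mmu-miR-223-3p was 2.42 ± 1.47 for J and 3.89 ± 0.787 for M (SD, n = 3; exact two-sided permutation test, p = 0.2). The libraries overlapped in this ratio, and the difference of -1.47 was -1.19 without M group replicate 1 and -0.64 without J group replicate 2. The ratio of mmu-miR-150-5p to mmu-miR-223-3p, the lymphocyte to the myeloid member, differed by 0.15 between the groups, with an SD of 0.445 in the J group and 0.733 in the M group (exact permutation test, p = 1). Its sign was not settled: it was 0.52 without M group replicate 1, -0.21 without M group replicate 3 and -0.10 without J group replicate 1.

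Of the 3 ratios to the pan-leukocyte member, those of mmu-miR-223-3p and mmu-miR-150-5p were lowest by far in M group replicate 1. In 5 libraries there were 0.624 to 1.09 reads of mmu-miR-223-3p and 0.549 to 1.18 reads of mmu-miR-150-5p for each read of mmu-miR-142a-3p, and in M group replicate 1 there were 0.0567 and 0.106. Between the groups the log2 ratios differed by 1.19 for mmu-miR-223-3p and 1.34 for mmu-miR-150-5p (exact permutation tests, p = 0.6 and p = 0.3). Without M group replicate 1 they differed by -0.14 and 0.39. For each read of mmu-miR-142a-3p there were 7.33, 1.84 and 6.53 reads of mmu-miR-342-3p in the J mice against 1.25, 19.2 and 6.46 in the M mice, so M group replicate 1 was close to J group replicate 2 and M group replicate 2 was highest. The log2 of this ratio differed by -0.27 (exact permutation test, p = 1), and by -1.32 without M group replicate 1. It differed by 0.65 without M group replicate 2 and by 0.36 without J group replicate 2, so its sign was not settled.

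Of 12 other miRNAs known from immune cells, 11 were tested, of which 0 passed as higher and 2 passed as lower in the J group, where 3.83% of all miRNAs passed as lower (4.01% without M group replicate 1). The median log2 fold change of the 11 was -0.52, beside -0.13 over all miRNAs, and without M group replicate 1 it was -0.17, beside -0.08. The 2 that passed were mmu-miR-146a-5p and mmu-miR-146b-5p, which NF-kB signalling induces and which dampen it. mmu-miR-146a-5p had 236, 225 and 262 RPM in the J mice against 1798, 845 and 384 RPM in the M mice, and its log2 fold change was -1.79 ± 0.51 (SE; limma adjusted p = 0.55). mmu-miR-146b-5p had 143, 81.0 and 140 RPM against 442, 355 and 260.5 RPM, with -1.54 ± 0.32 (SE; limma adjusted p = 0.42). Both passed without M group replicate 1 as well, at -1.24 and -1.36. mmu-miR-146b-5p is in the study's own list of differing miRNAs.

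**Figure D4:**
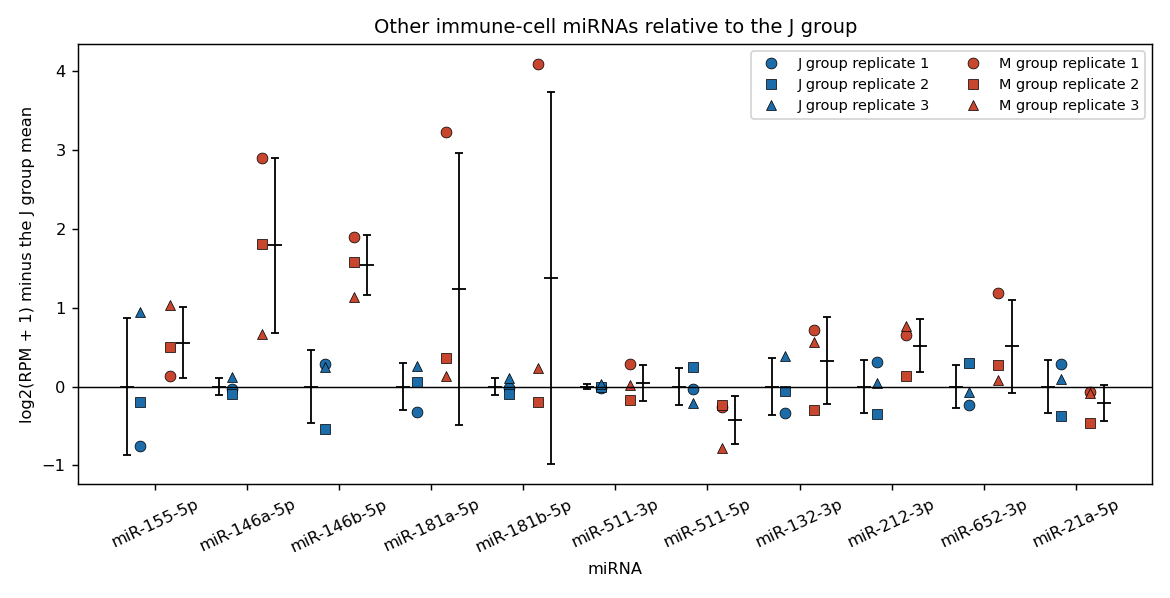
Other immune-cell miRNAs in each library, as log2(RPM + 1) minus the mean of the J group, with blue points for the J group, red points for the M group and black bars for the mean and SD (n = 3). All M libraries lay above all J libraries for mmu-miR-146a-5p and mmu-miR-146b-5p, as for 9.31% of all miRNAs. Only M group replicate 1 lay far above the rest for mmu-miR-181a-5p and mmu-miR-181b-5p.

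mmu-miR-181a-5p and mmu-miR-181b-5p, which act in lymphocyte development, had the pattern of miR-142a. In M group replicate 1 they were at 4951 and 1464 RPM, 7.35-fold and 14.7-fold above the next library, and their log2 fold changes were -0.25 and -0.020 without it. mmu-miR-21a-5p, the most abundant of the list, had 115607 to 181451 RPM in J and 108028 to 142135 RPM in M, and a log2 fold change of 0.21 ± 0.19 (SE; limma adjusted p = 0.73). mmu-miR-511-3p, made from an intron of the macrophage receptor gene Mrc1, had 21.3 to 22.1 RPM in J and 19.1 to 26.7 RPM in M, which overlapped, and a log2 fold change of -0.04 ± 0.25 (SE; limma adjusted p = 0.97), or 0.080 without M group replicate 1. Its other arm, mmu-miR-511-5p, had 4.17, 5.30 and 3.56 RPM in the J mice against 3.43, 3.52 and 2.10 RPM in the M mice, from 9 to 19 reads per library. Every J library was above every M library, as for 4.2% of all miRNAs. It did not pass the thresholds, with a log2 fold change of 0.42 ± 0.32 (SE; limma adjusted p = 0.71), or 0.50 ± 0.32 without M group replicate 1.

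Markers of the other cell types in liver were set beside these results. The 4 red blood cell miRNAs in the table (of 5 listed) summed to 5842 to 8671 RPM in J and 3914 to 13098 RPM in M. M group replicate 1, where miR-142a was highest, had 5912 RPM, within the J range, and M group replicate 3 had the highest sum. The 4 stromal miRNAs in the table (of 5 listed) summed to 12582 to 16890 RPM in J and 16765 to 25242 RPM in M, with the top in M group replicate 1. Of the 4, 3 passed as lower in the J group with and without that library, namely mmu-miR-214-3p, mmu-miR-199a-5p and mmu-miR-145a-5p, against 3.83% and 4.01% of all miRNAs. Without M group replicate 2 there were 2 that passed (6.93% of all miRNAs), and mmu-miR-214-3p did not. All 3 are in the study's own list of differing miRNAs, so their direction is not independent evidence. The 5 bile duct miRNAs summed to 950 to 2379 RPM and 1203 to 4298 RPM, again highest in M group replicate 1, with 0 of 5 past the thresholds. Endothelial mmu-miR-126a-3p (1 of 2 listed) had 4166 to 6718 RPM in J and 4486 to 5579 RPM in M. None of these markers was at 0 reads in any library. The part of stromal or bile duct RNA in the values of the leukocyte miRNAs was not tested.

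Among the 301 other mouse miRNAs with at least 10 reads in every library, the nearest in pattern over the 6 libraries were different ones for each of the 4 main members. For mmu-miR-142a-3p they were mmu-miR-181a-5p, mmu-miR-181b-5p and mmu-miR-18a-5p, each with a Pearson's r of 0.99 on log2(RPM + 1), which was 0.67, 0.62 and 0.64 without M group replicate 1. For mmu-miR-342-3p they were mmu-miR-423-5p (0.98), mmu-miR-7a-1-3p (0.96) and mmu-miR-146b-5p (0.95), which were 0.97, 0.97 and 0.95 without that library. For mmu-miR-223-3p they were mmu-miR-152-5p (0.98), mmu-miR-501-3p (0.96) and mmu-miR-29a-3p (0.92), which were 0.97, 0.96 and 0.94 without that library. For mmu-miR-150-5p they were mmu-miR-6240 (0.95), mmu-miR-2137 (0.94) and mmu-miR-6236 (0.94), which were 0.90, 0.89 and 0.87 without it. These are the highest of 301 values over few libraries, given as a description.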

How the data were processed

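Small RNA of liver was measured in 3 J and 3 M mice, with groups taken from the sample titles. The authors cleaned the reads, searched Rfam and miRBase with each distinct read and deposited RPM, in which a library sums to 1000000. The submitters' processing notes name mm9; the aligner and mismatch rule are not given in the sources used here. All values were whole multiples of the RPM of 1 read (100% within 0.01), so reads were recovered. J and M groups were compared by limma 3.58.1 in R 4.3.3 (lmFit, eBayes with trend, two-sided) on log2(RPM + 1) over 548 miRNAs, of which 229 had under 10 reads in some library, with Benjamini-Hochberg adjustment over all of them. edgeR 4.0.16 (quasi-likelihood, TMM) and DESeq2 1.42.0 on recovered reads, other pseudocounts, filters and scalings, a replicate block and each library left out were alternatives. The limma, edgeR and DESeq2 fits were tested on simulated data. Ratios used exact permutation tests (scipy 1.17.1, 3 against 3). Named were the 7 members, their other arms, the 3 most correlated miRNAs of the 4 main members, and members of the immune-cell and cell type lists. The members and lists were chosen with earlier results of these data known. Nothing says that mice of the same number were paired. Positions and sequences are those of GENCODE M21 and RefSeq, of build GRCm38, matched by name. Target prediction and qRT-PCR were not analysed here.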

Additional observations from a re-analysis of the deposited data

How the results depend on the processing

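The adjusted p of each member stayed above 0.05 under all alternatives that gave one, and the range was 0.37 to 0.83 for mmu-miR-342-3p. Over all miRNAs 29 passed the thresholds, 45 with edgeR and 21 to 45 with a library left out. Of the members 2 passed, 1 with 0.1 RPM added, with a filter at a mean of 10 RPM (where 5 are tested), after quantile normalization and with the replicate block, and 0 to 4 with a library left out. The deviations of same-numbered libraries from their group means were nearly uncorrelated (0.0453, 0.0584 and -0.00587), which does not settle whether mice were paired. With the replicate block 27 miRNAs passed, and mmu-miR-342-5p (-1.29) did not. It also did not pass with 0.1 RPM added (-2.52), after quantile normalization (-1.06), with edgeR (-2.07) or with DESeq2 (-2.14). mmu-miR-142a-3p passed with edgeR (-2.33), and mmu-miR-142a-5p without a filter (-1.12) and with DESeq2 (-1.38). mmu-miR-150-5p was above 0 after quantile normalization (0.049). Leaving out one library at a time gave log2 fold changes from -2.19 to -0.37 for mmu-miR-142a-3p, -1.60 to -0.38 for mmu-miR-142a-5p, -1.62 to -0.28 for mmu-miR-142b, -0.53 to 0.015 for mmu-miR-223-3p, -0.42 to 0.0070 for mmu-miR-150-5p, -2.20 to -1.18 for mmu-miR-342-3p and -1.71 to -0.93 for mmu-miR-342-5p. The difference in the log2 ratio of the miR-342 arms was 1.35 with 0.1 read added and -0.71 with 5 reads added. Depth limits mmu-miR-342-5p, mmu-miR-142b and the minor arms of miR-223 and miR-150, with 0 to 39 reads per library. The causes were not tested, and the mice are the replicates.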
